A study of Mus musculus with 6 samples.

Results

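The Gimap genes encode the GTPases of immunity-associated proteins, and the 8 features with the symbols Gimap1, Gimap3, Gimap4, Gimap5, Gimap6, Gimap7, Gimap8 and Gimap9 were taken from the 31053 features of single-cell count matrices of mouse pancreatic lymph nodes. These nodes drain the pancreas. All 6 mice carried a floxed gene, in 3 without the CD4-Cre transgene (CD4-Cre-, here Cre-negative) and in 3 with it (CD4-Cre+, here Cre-positive), and each mouse gave 1 library. CD4-Cre is driven by Cd4 regulatory DNA and cuts loxP-flanked DNA in developing T cells, in the CD4 and the CD8 lineage, and not in B cells. The labels give no strain, age, sex or treatment. The counts are UMIs, unique molecular identifiers that mark single captured RNA molecules, from 10x Genomics droplets.

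Gimap proteins share a GTP-binding domain, and several are anchored in intracellular membranes of lymphocytes. Their genes lie side by side in one cluster, and they are known for keeping resting lymphocytes alive. The BB rat, a model of autoimmune diabetes, lacks most peripheral T cells because of a mutation in Gimap5.

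The 8 genes lay between positions 48647234 and 48770851 of chromosome 6 (mm10, GENCODE M21), a stretch of 124 kb, in the order Gimap8, Gimap9, Gimap4, Gimap6, Gimap7, Gimap1, Gimap5, Gimap3. Gimap6 (48701582 to 48708225) and Gimap3 (48764464 to 48770851) are on the minus strand. The plus strand carries Gimap8 (48647234 to 48660875), Gimap9 (48676129 to 48679114), Gimap4 (48684549 to 48692060), Gimap7 (48718621 to 48724636), Gimap1 (48739054 to 48743795) and Gimap5 (48746197 to 48754210). The read-through gene Gm28053 shares exon sequence with Gimap7 (3.48% of its exonic bases), Gimap1 (6.44%) and Gimap5 (3.69%), and it was counted as a feature of its own at a mean of no more than 5.43 CPM in any of 6 main cell classes. Gimap3 and Gimap5 share an exact stretch of 140 bases, which lies 1215 to 1387 bases from the 3′ ends of their coding transcripts. No other pair of members shares more than 17 bases in a row. Reads within such stretches cannot be told apart, and whether the libraries read 3′ or 5′ ends is not given in the sources used here.

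The promoters of 4 members whose levels parted between cell classes are shown: Gimap7 and Gimap3, which were higher in regulatory and memory T cells, Gimap9, which was highest in naive CD4 T cells, and Gimap5, which was highest in CD8 T cells, among the 6 main classes. Each line is the 250 bases before the RefSeq transcript start (build GRCm38.p6), read 5′ to 3′ on the gene's strand, with the letters GGAAG (the core bound by ETS factors) and TGTGGT (bound by RUNX factors) in capitals where they occur on either strand.
Gimap7 (chr6:48718371-48718620, plus strand): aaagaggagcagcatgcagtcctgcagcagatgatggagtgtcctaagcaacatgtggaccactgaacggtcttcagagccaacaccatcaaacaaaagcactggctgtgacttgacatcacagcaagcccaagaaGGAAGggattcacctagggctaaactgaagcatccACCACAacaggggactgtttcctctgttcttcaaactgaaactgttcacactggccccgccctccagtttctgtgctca
Gimap3 (chr6:48770852-48771101, minus strand): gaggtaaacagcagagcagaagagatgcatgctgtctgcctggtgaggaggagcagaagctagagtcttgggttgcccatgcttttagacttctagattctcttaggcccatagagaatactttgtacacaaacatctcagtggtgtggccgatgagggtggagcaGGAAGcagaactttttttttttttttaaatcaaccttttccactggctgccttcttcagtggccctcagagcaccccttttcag
Gimap9 (chr6:48675885-48676134, plus strand): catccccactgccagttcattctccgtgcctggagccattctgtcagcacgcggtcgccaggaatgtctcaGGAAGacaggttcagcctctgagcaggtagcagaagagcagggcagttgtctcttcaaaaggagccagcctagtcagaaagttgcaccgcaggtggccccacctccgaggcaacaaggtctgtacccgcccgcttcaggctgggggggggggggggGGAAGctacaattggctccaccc
Gimap5 (chr6:48745947-48746196, plus strand): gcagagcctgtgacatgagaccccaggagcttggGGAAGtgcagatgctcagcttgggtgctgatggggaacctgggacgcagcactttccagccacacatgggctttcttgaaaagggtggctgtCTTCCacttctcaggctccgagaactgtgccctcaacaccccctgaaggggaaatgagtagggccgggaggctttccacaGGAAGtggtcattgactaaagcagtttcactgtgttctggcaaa

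All 8 members had an entry in the promoter table, Gimap8 with 2 starts. GGAAG was found for 8 of 8 members and in 8 of their 9 windows, where 64.1% of all 32851 promoter windows of this length hold it. TGTGGT was found for Gimap4, Gimap7 and Gimap1 and in 14.0% of all windows. GTAAACA, a FOXO motif, was found for Gimap3 alone (3.17% of all windows), and GGGCGG, the GC box, for Gimap9 and Gimap7 (32.7%). CACCC, a motif of KLF factors, was found for 5 members, in 6 of the 9 windows (52.0% of all windows). TGANTCA (AP-1) was found for 0 members and CTTTGA (TCF/LEF) for 0 members, with 6.75% and 13.8% of all windows holding them. Both strands were searched and overlaps between motifs were allowed. These matches describe letters and not bound sites.

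Cells were placed in classes by the UMIs of marker genes. Of 51777 cells kept, 25880 fell in 1 of 10 classes, and 20781 T cells met no class. Naive CD4 T cells (5626) and naive CD8 T cells (3030) had UMIs of naive markers, among them Ccr7 or Lef1, and no UMI of 6 memory genes, while memory CD4 T (1198) and memory CD8 T cells (1319), which include activated cells, had at least 3 such UMIs. Regulatory T cells (1752) had Foxp3. B cells numbered 10969. Libraries held 47149014 to 61321105 UMIs, and the sum of a main class in a mouse held at least 920181 UMIs. Among the distinct barcodes, 418 occurred in 2 or more libraries, 16 to 39 for each pair of libraries.

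Sums of markers outside the gates differed between the naive and memory CD4 classes and overlapped between the naive and memory CD8 classes, where single markers differed. The summed level of 5 naive markers (Igfbp4, Satb1, Dapl1, S1pr1, Tcf7) ranged over mice from 2760 to 2893 CPM in naive CD4 and from 986 to 1171 CPM in memory CD4 T cells, but from 1840 to 2247 CPM in naive CD8 and from 1532 to 1924 CPM in memory CD8 T cells. The sum of 4 memory markers (Cd44, S100a6, Id2, Ahnak) was 181 to 195 CPM in naive CD4 and 602 to 755 CPM in memory CD4 T cells, but 274 to 370 CPM in naive CD8 and 368 to 452 CPM in memory CD8 T cells, which overlap. Of these, Id2 was lower in memory CD8 (147 to 215 CPM) than in naive CD8 T cells (222 to 320 CPM). The others were higher in memory CD8 T cells: Cd44 had 38.6 to 64.5 against 7.33 to 11.5 CPM in naive CD8 T cells. S100a6 had 37.4 to 93.9 against 0.265 to 4.12 CPM and Ahnak 83.9 to 135 against 35.3 to 50.4 CPM. The naive marker Igfbp4 was lower in memory CD8 (119 to 177 CPM) than in naive CD8 T cells (316 to 363 CPM). Ranges overlapped for Satb1, Dapl1, S1pr1 and Tcf7. The sum of 4 regulatory markers (Il2ra, Ikzf2, Ctla4, Tnfrsf18) was 88.3 to 107 CPM in naive CD4, 720 to 878 CPM in memory CD4 and 1695 to 1912 CPM in regulatory T cells, and none of the 4 was at 0 in memory CD4 T cells. Foxp3, which the gate requires to be absent, had 0 UMIs there. The sum of 5 B cell markers was 189 to 804 CPM in memory CD4 T cells, 34.9 to 56.3 CPM in naive CD4 T cells and 15777 to 18570 CPM in B cells. It was 38.1 to 360 CPM in memory CD8 and 41.1 to 91.8 CPM in naive CD8 T cells. In both memory classes nearly all of it was Cd74, which other antigen-presenting cells share. Their part in the results on memory cells was not tested. Memory CD8 T cells were also sequenced deeper, with a median per library of 6951 to 9161 UMIs against 5244 to 6631 in naive CD8 T cells.

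The summed level of the 8 members was high in all T cell classes and in B cells and low in myeloid-like cells. Levels in CPM, UMI counts scaled to a common library total with TMM factors, are given as mean ± SD over 6 mice. The family summed to 1512 ± 57.4 CPM in naive CD4, 1412 ± 90.2 in memory CD4, 1564 ± 99.4 in regulatory, 1078 ± 32.0 in naive CD8 and 1174 ± 58.5 in memory CD8 T cells. B cells had 936 ± 26.1 CPM and myeloid-like cells 86.7 ± 34.3 CPM. Orders of levels given from here on are over the 6 main classes, naive CD4, memory CD4, regulatory, naive CD8 and memory CD8 T cells and B cells. The sum hid members that moved apart between them, as the plot of levels by class and mouse shows.

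**Figure D1:**
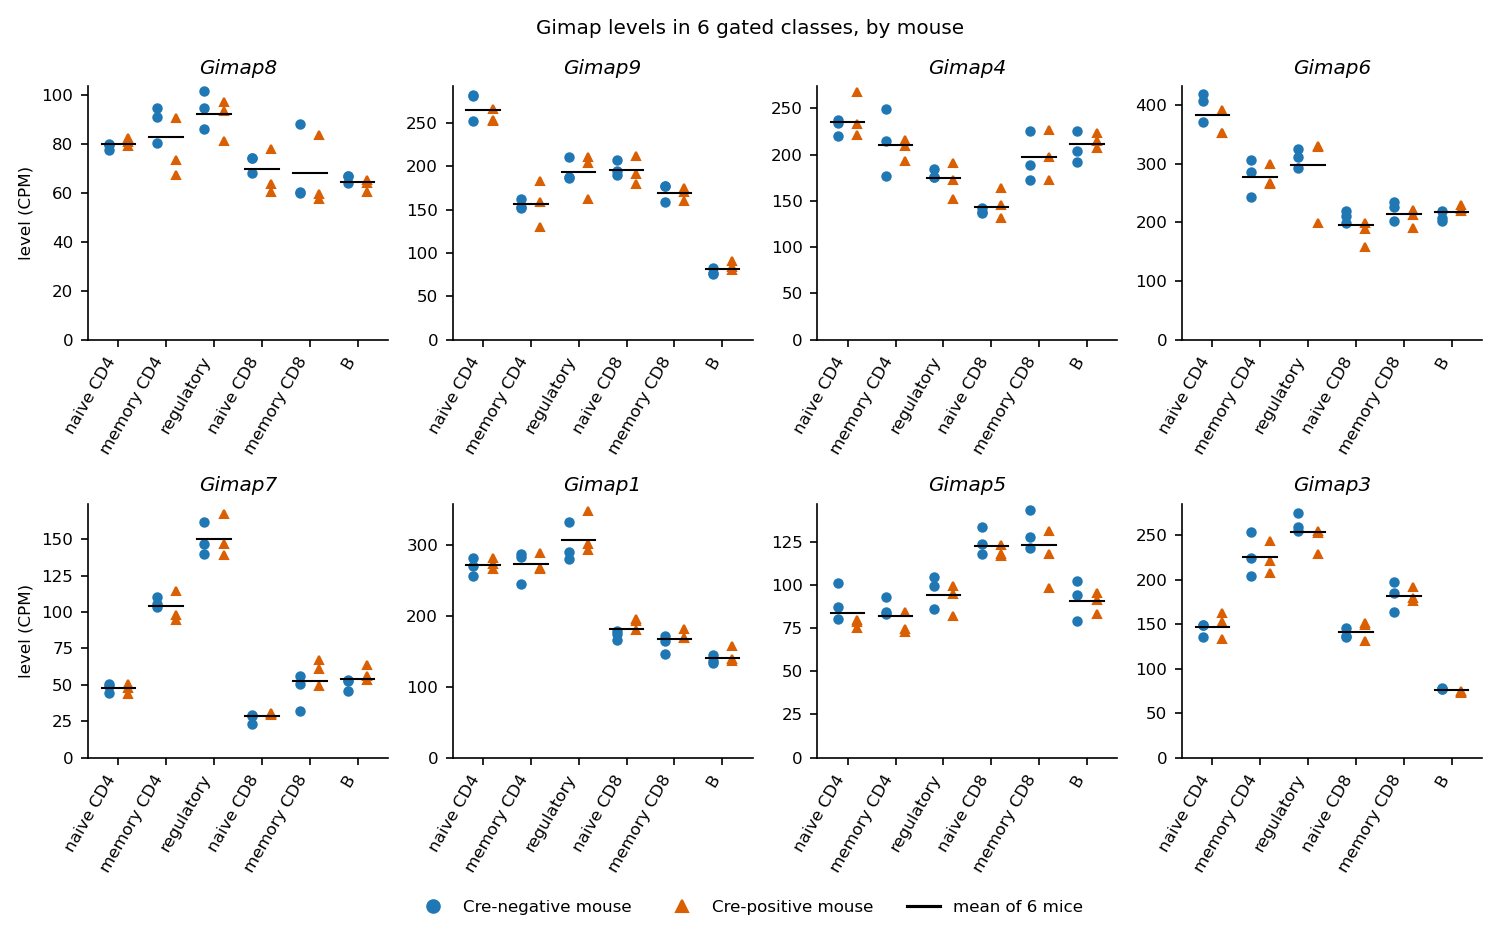
Level of each Gimap gene (CPM, linear axis from 0) in 6 cell classes, with 1 point per mouse (circles Cre-negative, triangles Cre-positive) and a line at the mean of 6 mice. Gimap7 had its highest values in regulatory T cells (139 to 167 CPM), Gimap9 in naive CD4 T cells (252 to 282 CPM) and Gimap5 in CD8 T cells (98.5 to 143 CPM in memory CD8).

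Gimap5, which guards lymphocyte survival at lysosomal membranes, had its highest levels in CD8 T cells among the 6 main classes. The lowest, median and highest mouse had 117, 121 and 134 CPM in naive CD8 T cells and 98.5, 124 and 143 CPM in memory CD8 T cells. In naive CD4 T cells it had 75.2, 80.0 and 101 CPM, and no mouse of this class reached the lowest mouse of naive CD8 T cells. Regulatory T cells (94.3 ± 8.63 CPM), B cells (90.8 ± 8.57), naive CD4 (83.6 ± 9.37) and memory CD4 T cells (82.0 ± 7.38) formed an order in which each neighbour overlapped the next.

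Gimap3, the close relative of Gimap5, was highest in regulatory T cells, with 228, 255 and 275 CPM in the lowest, median and highest mouse. Memory CD4 T cells had 204, 223 and 253 CPM and overlapped them. Memory CD8 T cells (182 ± 11.8 CPM) lay apart from the classes above and below them. Naive CD4 (147 ± 11.2 CPM) and naive CD8 T cells (142 ± 8.21 CPM) overlapped, and B cells had the lowest level at 75.5 ± 2.13 CPM.

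Gimap1, which mature T and B cells need to persist, split the CD4 from the CD8 lineage. Regulatory (307 ± 26.5 CPM), memory CD4 (272 ± 17.0) and naive CD4 T cells (271 ± 9.41) overlapped, and the lowest mouse of naive CD4 T cells (257 CPM) stood above the highest of naive CD8 T cells (195 CPM). Memory CD8 T cells had 167 ± 11.7 CPM and B cells 141 ± 8.91 CPM.

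Gimap4, which has been linked to the timing of T cell death, had in B cells a level within the range of the T cell classes. Naive CD4 T cells had 221, 234 and 267 CPM in the lowest, median and highest mouse and B cells 192, 211 and 225 CPM, so the ranges overlapped. Memory CD4 (210 ± 24.5 CPM) and memory CD8 T cells (197 ± 24.3 CPM) came after B cells in the order. Its lowest class was naive CD8 T cells at 143 ± 11.4 CPM, next to regulatory T cells at 153 to 191 CPM, and neighbours in the order of its levels all overlapped.

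Gimap6, which binds a protein of the GABARAP family and takes part in autophagy, was highest in naive CD4 T cells, with 353, 381 and 419 CPM in the lowest, median and highest mouse. That range lay above those of the other 5 main classes. In regulatory T cells 1 library stood apart: Cre-positive 3 had 199 CPM and the other 5 had 293 to 330 CPM. Memory CD4 T cells had 277 ± 23.4 CPM, B cells 217 ± 10.3, memory CD8 215 ± 16.4 and naive CD8 T cells 196 ± 21.6 CPM.

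Gimap7, which is known to form dimers that hydrolyse GTP, showed the clearest steps. Its lowest, median and highest mouse had 139, 147 and 167 CPM in regulatory T cells, 94.4, 105 and 114 CPM in memory CD4 T cells and 43.7, 48.5 and 50.6 CPM in naive CD4 T cells. These ranges did not overlap. B cells (54.2 ± 5.81 CPM), memory CD8 (52.5 ± 12.1) and naive CD4 T cells overlapped, and naive CD8 T cells were lowest at 28.5 ± 2.76 CPM.

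Gimap8, a larger protein with more than 1 GTP-binding domain, and Gimap9 make up the end of the cluster with the lowest coordinates. Gimap8 varied least, from 92.4 ± 7.48 CPM in regulatory T cells to 64.6 ± 2.38 CPM in B cells, with every neighbour in that order overlapping the next. Gimap9 was highest in naive CD4 T cells, with 252, 259 and 282 CPM in the lowest, median and highest mouse. Naive CD8 (196 ± 12.1 CPM), regulatory (193 ± 18.9), memory CD8 (170 ± 8.50) and memory CD4 T cells (157 ± 17.5) followed in an overlapping order, and B cells were set apart at 81.6 ± 5.32 CPM.

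Regulatory T cells were compared with naive CD4 T cells of the same mice. Gimap7 was 3.14-fold higher and Gimap3 1.73-fold higher in regulatory T cells, while Gimap9, Gimap4 and Gimap6 were lower. In edgeR's quasi-likelihood test over 10034 genes, 5 of 8 members rose and 3 fell, where 22.3% of all genes rose and 22.4% fell. The median log2 fold change was 0.17 over the members and -0.00 over all genes. Gimap7 rose by 1.65 on the log2 scale (SE 0.0695, adjusted p = 1.78e-36) and Gimap3 by 0.79 (SE 0.0467, adjusted p = 6.36e-27), both in 6 of 6 mice. Gimap9 had a log2 fold change of -0.45 (SE 0.0481, adjusted p = 1.17e-13), Gimap4 of -0.43 (SE 0.0503) and Gimap6 of -0.36 (SE 0.0757), each lower in 6 of 6 mice. Gimap8 (0.21), Gimap1 (0.18) and Gimap5 (0.17, adjusted p = 0.0242) rose less. Gimap8 had an adjusted p of 0.109 without the low-count filter and of 0.326 (log2 fold change 0.12) with gates read on thinned cells, and Gimap1 had 0.0516 without the filter. Gimap5 lost its call under several alternatives, 3 of which left out a library: without Cre-negative 3, Cre-positive 2 or Cre-positive 3 its adjusted p was 0.131, 0.0877 and 0.110.

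The scaling bears on these differences. With library totals in place of TMM factors, an alternative chosen after seeing the data, the median of all genes moved to 0.21 for both regulatory and memory CD4 T cells over naive CD4 T cells, so values there are read relative to that median. Gimap6 in regulatory T cells then had a log2 fold change of -0.15 (adjusted p = 0.0823), and Gimap9 and Gimap4 remained lower at -0.24 and -0.22.

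Memory CD4 T cells differed from naive CD4 T cells mainly in Gimap7, Gimap9 and Gimap3. Gimap7 was 2.18-fold and Gimap3 1.54-fold higher, and Gimap9 1.68-fold lower in memory cells. Here 2 of 8 members rose and 3 fell, beside 21.9% and 20.4% of all genes, with a median log2 fold change of -0.01 over the members and -0.01 over all genes. Gimap7 rose by 1.12 (SE 0.0755, adjusted p = 1.86e-23) and Gimap3 by 0.62 (SE 0.0481, adjusted p = 4.28e-20), in 6 of 6 mice. Gimap9 had a log2 fold change of -0.75 (SE 0.0504, adjusted p = 1.61e-23) and Gimap6 of -0.46 (SE 0.0774, adjusted p = 1.73e-05), lower in 6 of 6 mice. Gimap4 fell by 0.16 on the log2 scale (adjusted p = 0.00635) in 5 of 6 mice. With library totals Gimap4 turned to 0.06, and Gimap1 (0.23), Gimap5 (0.20) and Gimap8 (0.27) passed as higher. Gimap4 also had an adjusted p of 0.0661 with no mouse block, and without Cre-positive 1 its adjusted p was 0.0887. Gimap1 (0.01), Gimap8 (0.05) and Gimap5 (-0.02) did not pass. By mean level, Gimap7 and Gimap3 in memory CD4 T cells lay between naive CD4 and regulatory T cells, as did Gimap1, Gimap4 and Gimap8. Gimap9 (157 CPM against 264 and 193 CPM), Gimap6 (277 against 382 and 298 CPM) and Gimap5 lay below both. The regulatory markers given above lay between as well, and their part in these levels was not tested.

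A comparison added after seeing the data set regulatory T cells against memory CD4 T cells. Gimap7 rose by 0.53 (SE 0.0736, adjusted p = 2.20e-08), Gimap9 by 0.30, Gimap1 by 0.17 and Gimap3 by 0.17, and Gimap4 fell by 0.27 on the log2 scale, each in 6 of 6 mice. Thus 4 of 8 members rose and 1 fell, where 6.84% of all genes rose and 7.41% fell. With gates read on thinned cells, Gimap7 had 0.25 (adjusted p = 0.148), and the sign turned for Gimap1 and Gimap3. At a mitochondrial limit of 5% Gimap4 had -0.14 (adjusted p = 0.263), and Gimap1 had an adjusted p of 0.101 with the stricter memory gate and 0.0608 with no mouse block. Gimap3 also lost its call without Cre-negative 2, Cre-negative 3 or Cre-positive 2 (adjusted p = 0.0780, 0.0780 and 0.0673). Calls were also gained: Gimap6 passed as higher without Cre-positive 3 (0.18, adjusted p = 0.0103). Gimap5 passed as higher without Cre-negative 1 or Cre-positive 1 (adjusted p = 0.0362 and 0.0478).

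**Figure D2:**
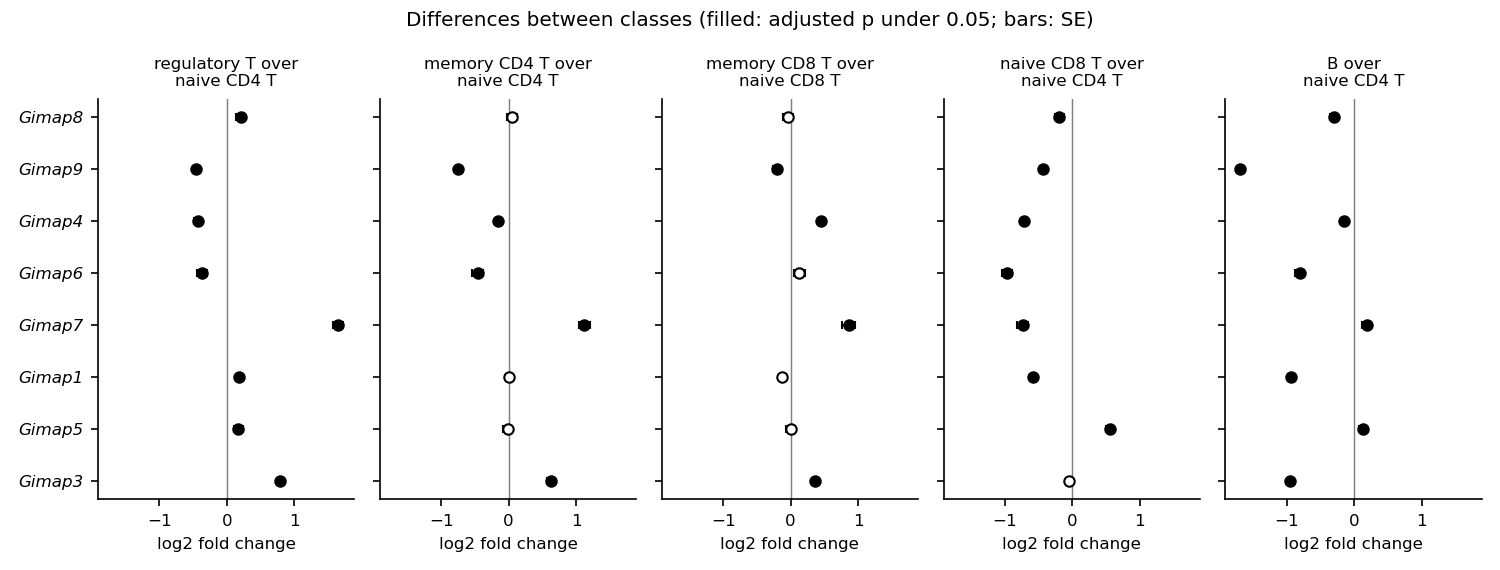
Log2 fold change of each Gimap gene between 2 classes of the same 6 mice (x axis, 1 panel per comparison), with bars for the standard error and filled points for an adjusted p under 0.05. Gimap7 lies at 1.65, 1.12 and 0.87 in the regulatory, memory CD4 and memory CD8 panels, and Gimap5 is the point to the right of 0 among naive CD8 over naive CD4 T cells.

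In CD8 T cells memory was again tied to higher Gimap7 and Gimap3, while Gimap4 went the other way from CD4 T cells. Gimap7 was 1.82-fold, Gimap4 1.37-fold and Gimap3 1.29-fold higher in memory than in naive CD8 T cells. Of the 8 members 3 rose and 1 fell, beside 9.04% and 6.77% of all genes, with a median of 0.07 over the members and -0.00 over all genes. Gimap7 rose by 0.87 on the log2 scale (SE 0.0964, adjusted p = 9.08e-12), Gimap4 by 0.46 (SE 0.0529, adjusted p = 3.59e-11) and Gimap3 by 0.36 (SE 0.0503, adjusted p = 1.22e-08), in 6 of 6 mice each. Gimap9 fell by 0.20 (SE 0.0509, adjusted p = 0.00203) in 6 of 6 mice.

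Some of the memory CD8 results depended on the gate. With a stricter memory gate, whose definition is given here only in part, 421 cells remained, and Gimap4 had a log2 fold change of 0.09 (adjusted p = 0.521), Gimap7 of 1.43 and Gimap9 of -0.40. With gates read on cells thinned to 2000 UMIs, 215 memory CD8 T cells remained, Gimap7 had 1.85, Gimap5 0.41 (adjusted p = 0.00813) and Gimap9 0.07 (adjusted p = 0.815).

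The difference between the memory-over-naive changes of CD4 and of CD8 T cells was tested as a further comparison added after seeing the data. It was negative for Gimap4 (-0.62, SE 0.0727, adjusted p = 3.85e-11), Gimap6 (-0.59, SE 0.114, adjusted p = 0.000310) and Gimap9 (-0.55, SE 0.0718, adjusted p = 1.50e-09), in 6 of 6 mice. It was positive for Gimap3 (0.26, SE 0.0694, adjusted p = 0.00364), in 6 of 6 mice. So 1 of 8 members passed as higher and 3 as lower, beside 8.58% and 8.91% of all genes. With library totals the median of all genes moved to 0.17. With the stricter memory gate, Gimap4 (-0.23, adjusted p = 0.142) and Gimap6 (-0.34, adjusted p = 0.166) did not pass.

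Naive CD8 T cells had less of most members than naive CD4 T cells, and more Gimap5. Gimap6 was 1.95-fold, Gimap7 1.67-fold and Gimap4 1.65-fold lower, and Gimap5 was 1.47-fold higher. In all 1 of 8 members rose and 6 fell, where 13.6% of all genes rose and 15.3% fell, with medians of -0.51 over the members and -0.01 over all genes. Gimap5 rose by 0.55 on the log2 scale (SE 0.0583, adjusted p = 2.90e-13) in 6 of 6 mice. Gimap6 had a log2 fold change of -0.96 (SE 0.0753, adjusted p = 3.48e-11), Gimap7 of -0.74 (SE 0.0846), Gimap4 of -0.72 (SE 0.0484), Gimap1 of -0.59 (SE 0.0418), Gimap9 of -0.44 (SE 0.0455) and Gimap8 of -0.19 (SE 0.0650). Each was lower in 6 of 6 mice. Gimap8 had an adjusted p of 0.0165, and of 0.139 and 0.0692 without Cre-positive 1 or Cre-positive 3. Gimap3 had -0.05 (SE 0.0470, adjusted p = 0.472).

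B cells, which do not delete through CD4-Cre, held every member, at 30.8% to 114% of its level in naive CD4 T cells. In the comparison with naive CD4 T cells, Gimap9 was 3.24-fold, Gimap3 1.94-fold, Gimap1 1.93-fold and Gimap6 1.75-fold lower in B cells. Here 2 members rose and 6 fell, where 35.3% of all genes rose and 35.1% fell, with medians of -0.56 over the members and 0.00 over all genes. Gimap9 had a log2 fold change of -1.69 (SE 0.0450, adjusted p = 1.85e-52), Gimap3 of -0.96 (SE 0.0449), Gimap1 of -0.95 (SE 0.0395), Gimap6 of -0.81 (SE 0.0702), Gimap8 of -0.30 (SE 0.0575) and Gimap4 of -0.16 (SE 0.0438), each lower in 6 of 6 mice. Gimap7 rose by 0.18 (SE 0.0650, adjusted p = 0.00997) in 5 of 6 mice and Gimap5 by 0.12 (SE 0.0542, adjusted p = 0.0386) in 4 of 6 mice. Gimap5 did not pass without Cre-negative 3, Cre-positive 1 or Cre-positive 3 (adjusted p = 0.254, 0.206 and 0.190), and Gimap7 did not pass without Cre-positive 1 or Cre-positive 2 (adjusted p = 0.0791 and 0.0539).

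Free RNA in droplets gives cells a low level of genes they do not express, so 10 T cell genes were read in the same B cells. Of these, 9 stood at 0.633% to 1.79% of their naive CD4 T cell level, and Lck, a kinase also found in some B cells, stood at 6.93%. The lowest of the 8 members was Gimap9 and the highest Gimap7. In myeloid-like cells the members stood at 2.53% (Gimap4) to 15.3% (Gimap5) and the T cell genes at 0.811% to 8.04%, ranges that overlap.

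**Figure D3:**
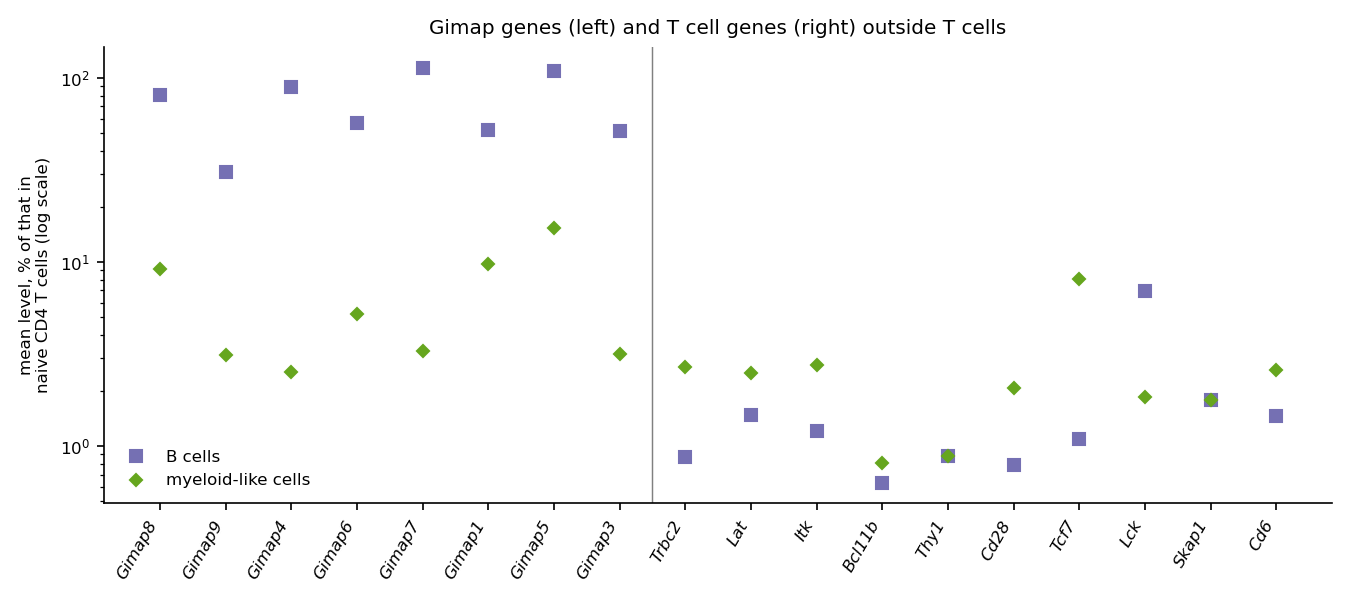
Mean level over 6 mice in B cells (squares) and myeloid-like cells (diamonds) as a percentage of the level in naive CD4 T cells (log axis), for 8 Gimap genes left of the line and 10 T cell genes right of it. In B cells the Gimap genes lie between 30.8% and 114%, and 9 of the T cell genes lie at or below 1.79%.

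The share of cells with a UMI of a gene was read in cells thinned to 2000 UMIs each. Gimap7 was found in 24.4% of regulatory, 19.0% of memory CD4, 8.53% of naive CD4 and 10.2% of B cells (means over 6 mice), and in 42.7%, 40.8%, 19.5% and 20.6% before thinning. In 682 myeloid-like cells of that depth its mean share was 0.333%. Gimap9 was found in 37.1% of naive CD4, 29.3% of memory CD4 and 14.9% of B cells after thinning, and in 63.5%, 60.6% and 29.3% before. The median thinned naive CD4 T cell had 2 members in each mouse, and whether members occur together beyond their single shares was not tested. In naive CD4 T cells 6.65% to 9.22% of the thinned cells of a mouse had none of the 8 members and 3.66% to 4.03% had 5 or more, and in regulatory T cells 3.41% to 7.72% had none and 5.88% to 11.6% had 5 or more. In B cells 17.3% to 20.8% had none. Thinning left out 23 naive CD4 T, 41 regulatory T and 119 B cells that were too shallow.

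No member differed between Cre-positive and Cre-negative mice by the test in any class, and most differences were within the spread between mice. All 8 members passed the filter on low counts in each class, and 0 of 8 passed at an adjusted p of 0.05 with edgeR. The share of all genes called was 0.0311% in naive CD4 T, 0% in memory CD4 T, 0.0237% in regulatory T, 0.0228% in naive CD8 T, 0.0240% in memory CD8 T and 0% in B cells. DESeq2 also called 0 members in each class. At an unadjusted p under 0.05 edgeR found 1 member each in naive CD4 T, naive CD8 T, memory CD8 T and B cells and 0 in memory CD4 T and regulatory T cells. The members' median log2 fold changes ranged from -0.04 in regulatory T to 0.06 in B cells.

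Gimap5 in naive CD4 T cells had the smallest p among all members and classes. The 3 Cre-negative mice had 87.3, 101 and 80.2 CPM and the 3 Cre-positive mice 75.2, 78.2 and 79.7 CPM, so the groups did not overlap. In edgeR the log2 fold change (Cre-positive over Cre-negative) was -0.19 (SE 0.0868, unadjusted p = 0.0317, adjusted p = 0.873), and 10.7% of all genes tested in this class did not overlap between the groups. Named after its values were seen, Gimap5 was also on the lower side in the other 5 classes, from -0.03 in B cells to -0.18 in memory CD8 T cells, with no call. Gimap7 in B cells had 45.7, 53.6 and 52.3 CPM in Cre-negative and 63.7, 53.5 and 56.0 CPM in Cre-positive mice, groups that overlapped (0.19, SE 0.0887, adjusted p = 0.995). In memory CD8 T cells Gimap7 had 31.9, 56.1 and 50.2 CPM in Cre-negative and 60.6, 49.2 and 66.9 CPM in Cre-positive mice (0.37, SE 0.170, adjusted p = 0.911). In the same sums Cd74 did not overlap between the groups, with a mean ± SD (n = 3) of 263 ± 126 CPM with Cre and 50.8 ± 21.7 CPM without it, and its part in the result was not tested.

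The members of smallest p in the other classes were Gimap6 in naive CD8 T cells (-0.20, SE 0.0946, adjusted p = 0.941), Gimap8 in memory CD4 T cells (-0.20, SE 0.142, adjusted p = 0.960) and Gimap3 in regulatory T cells (-0.09, SE 0.0981, adjusted p = 0.980). Gimap3 in regulatory T cells did not overlap, with 255 to 275 CPM in Cre-negative and 228 to 254 CPM in Cre-positive mice, and 10.5% of all genes did not overlap there. The same held for Gimap3 in B cells (77.3 ± 0.703 CPM against 73.7 ± 1.05 CPM, SD, n = 3) and for Gimap1 and Gimap7 in naive CD8 T cells, beside 9.88% and 10.4% of all genes. Over all members and classes the standard errors were 0.0741 to 0.170 on the log2 scale. These errors were 0.0777 to 0.0995 in naive CD4 T, 0.0981 to 0.157 in regulatory T and 0.117 to 0.142 in memory CD4 T cells. In simulated data the genotype test recovered an absolute log2 change of 0.5 for 18.2% of changed genes in memory CD4 T cells. The share was 25% in regulatory T, 59.6% in naive CD4 T and 70.9% in B cells. For a change of 1 it was 72.3% in memory CD4 T and 97.9% in B cells. Changes of 0.5 could thus often be missed, above all in memory CD4 and regulatory T cells. What size would be missed for a single member was not tested.

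**Figure D4:**
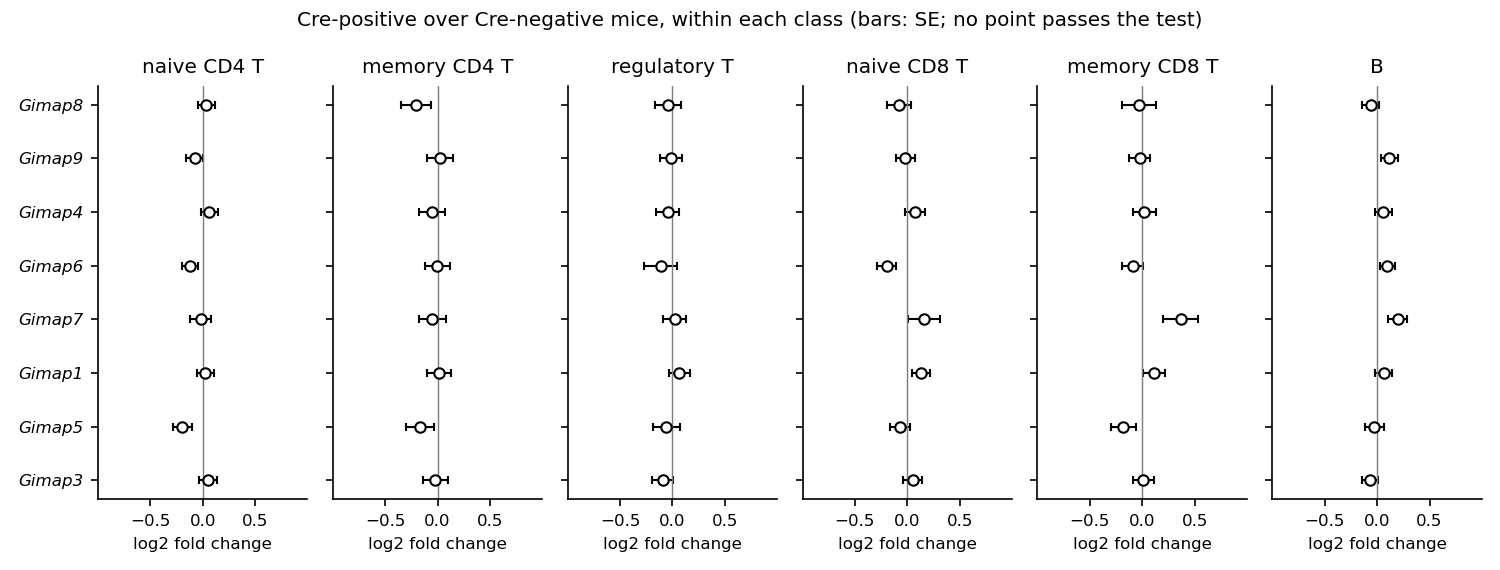
Log2 fold change of each Gimap gene in Cre-positive over Cre-negative mice (x axis), 1 panel per cell class, with bars for the standard error and open points because no adjusted p was under 0.05. The points lie between -0.20 (Gimap8, memory CD4 T) and 0.37 (Gimap7, memory CD8 T).

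The genotype effect was also set against that in naive CD4 T cells for each other class, and between the memory and naive CD8 classes. In the edgeR test 0 of 8 members differed in any of these 6 differences, and the smallest adjusted p was 0.927 (Gimap8, memory CD4 T minus naive CD4 T). At an unadjusted p under 0.05 there was 1 member in each of 2 differences, Gimap7 in memory CD8 T and Gimap9 in B cells, both relative to naive CD4 T cells.

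Genes related to the known roles of the family were read from lists, whose counts stand beside the share of all genes called: 22.3% higher and 22.4% lower in regulatory over naive CD4 T, 21.9% and 20.4% in memory over naive CD4 T, 9.04% and 6.77% in memory over naive CD8 T, 13.6% and 15.3% in naive CD8 over naive CD4 T, and 35.3% and 35.1% in B over naive CD4 T cells. The lists are short, and nothing particular to them is read from the counts. Among 11 genes of the LC3 and GABARAP autophagy conjugation system, 3 rose and 3 fell in regulatory over naive CD4 T cells, with a median log2 fold change of -0.09. Gabarapl1 rose by 2.62 (SE 0.228), Gabarap by 0.30 (SE 0.0441), and Atg3, an enzyme that attaches these proteins to lipid, fell by 0.51 (SE 0.0674). Gabarapl2, a partner of Gimap6, fell by 0.37 (SE 0.0483) in naive CD8 over naive CD4 T cells. In memory over naive CD4 T cells 2 of these 11 genes rose and 2 fell, in memory over naive CD8 T cells 1 rose, in naive CD8 over naive CD4 T cells 2 rose and 3 fell, and in B over naive CD4 T cells 3 rose and 4 fell.

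Of 10 survival genes, 6 rose and 3 fell in regulatory over naive CD4 T cells (all genes 22.3% and 22.4%), among them Bcl2l1, which protects from apoptosis (1.60, SE 0.166), and Il7r, the receptor for a survival cytokine (-1.76, SE 0.0946). In memory over naive CD4 T cells 5 rose and 5 fell, and in memory over naive CD8 T cells 5 rose, with Bbc3, which promotes apoptosis, at -1.43 (SE 0.114) in the first and 0.66 (SE 0.0997) in the second. In naive CD8 over naive CD4 T cells 1 rose and 3 fell, and in B over naive CD4 T cells 5 rose and 5 fell.

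Of 15 genes tied to lymphocyte quiescence, 10 fell and 1 rose in memory over naive CD4 T cells (all genes 20.4% lower and 21.9% higher), with a median of -0.31. Satb1 (-1.33, SE 0.0472), Txnip (-1.22, SE 0.0695) and Bach2 (-0.70, SE 0.0676) led. The counts were 10 fallen and 1 risen in regulatory over naive CD4 T cells, 6 fallen and 0 risen in memory over naive CD8 T cells, 10 fallen and 0 risen in naive CD8 over naive CD4 T cells, and 10 fallen and 3 risen in B over naive CD4 T cells. Of 15 neighbours of the cluster 7 passed the filter on low counts. In regulatory over naive CD4 T cells Lrrc61 (1.51, SE 0.212) and Zfp467 (1.18, SE 0.176) rose. In memory over naive CD4 T cells 4 rose and 1 fell, with Tmem176b at 3.75 (SE 0.459) and Tmem176a at 4.04 (SE 0.495). In memory over naive CD8 T cells 2 rose, in B over naive CD4 T cells 3 rose and 1 fell, and in naive CD8 over naive CD4 T cells 1 fell, Zfp467 (-2.52, SE 0.277). In the genotype test with edgeR no gene of these 4 lists passed in any class, and the lowest adjusted p was 0.721, for a quiescence gene in B cells.

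The genes most like the family in level were found by Pearson correlation over the 36 sums (6 classes in 6 mice, log2 CPM) among 5165 candidates. These points share libraries and classes, so the values are descriptions. The summed level was most like that of Chd3 (r = 0.94), Ass1 (0.93), Tgoln1 (0.93), Cdkn1b (0.91), which encodes an inhibitor of cell division, and Zfp281 (0.91). For single members the closest gene was Tnfsf8, the ligand of CD30, for Gimap3 (0.98), Atp2b1, a calcium pump, for Gimap7 (0.96), Gm20186 for Gimap9 (0.97) and Ass1 for Gimap1 (0.93). It was Ets1, an ETS family transcription factor, for Gimap6 (0.88), B4galnt1 for Gimap5 (0.83), Med14 for Gimap8 (0.83) and Gpr183, a receptor that guides lymphocyte migration, for Gimap4 (0.79). Among pairs of members r was highest for Gimap1 with Gimap3 (0.74) and lowest for Gimap5 with Gimap6 (-0.59).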

How the data were processed

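UMI counts per gene and barcode were deposited by the authors for 6 libraries of pancreatic lymph node cells. Per the submitters' processing notes they were made with Cell Ranger 6.1.2, and the annotation release is not given in the sources used here. The floxed gene and 1 gene of the gates are not reported here. Cells needed at least 500 UMIs, at least 300 detected genes and no more than 10% mitochondrial UMIs, and Scrublet scores (scanpy 1.11.5) removed the top 0.8% of barcodes for each 1000 barcodes in a library as doublets. Libraries held 47149014 to 61321105 UMIs.

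Cells were gated by marker UMIs and counts were summed per mouse and class. Cells of a mouse are not replicates, so genotype p-values rest on 3 mice a group. Those of class contrasts rest on 6 mice, with the spread of a gene estimated over all 36 sums and not only over the classes compared. In both kinds of test the spread of a gene was also drawn towards that of other genes. The p-values therefore do not rest on the gene's own spread between mice alone. edgeR 4.0.16 (R 4.3.3) was used with TMM factors, the default low-count filter and robust quasi-likelihood F tests, with Benjamini-Hochberg adjustment over all genes tested at 0.05. Genotype was fitted in each class alone. Class contrasts came from a joint fit of the 36 sums, blocked on mouse. Interactions came from a separate fit of the same sums that added terms for genotype within class. SE is the absolute log2 fold change over the square root of F. Correlations used log2 CPM with a prior count of 2. The fits were tested on simulated data. Alternatives were DESeq2 1.42.0, limma 3.58.1 (voom), RLE factors, library totals, no low-count filter, other cell limits and gates, blocks and leaving out each library.

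All 8 members were named in every class. Genotype fold changes were named for the member of smallest p in each class, list genes for up to 3 of smallest p in a contrast, and similar genes by the highest Pearson correlation among genes with a mean of at least 20 CPM. The members and lists were chosen with earlier results of these data known.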

Additional observations from a re-analysis of the deposited data

Results flagged for a closer look

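The change from naive to memory cells differed between CD4 and CD8 T cells for 4 members, by a test of the difference itself in edgeR's joint fit that was added after seeing the data. The log2 difference (CD4 minus CD8) was -0.62 for Gimap4, -0.59 for Gimap6, -0.55 for Gimap9 and 0.26 for Gimap3, each with the same sign in 6 of 6 mice. The difference for Gimap4 and Gimap6 was not called with the stricter memory gate, and that for Gimap3 was not called without the low-count filter (adjusted p = 0.0951) or with gates read on thinned cells (adjusted p = 0.0634).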

How the results depend on the processing

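No member passed the genotype test in any class under any alternative, and limma-voom changed no call of a class contrast. Of 1000 recomputed values of the 56 class contrasts of single members, 897 kept direction and call, 43 lost the call, 12 gained one and 48 changed sign. Where not stated otherwise the cause was not tested.

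The number of all genes passing the genotype test was small and moved, from 3, 0, 2, 2, 2 and 0 in naive CD4, memory CD4, regulatory, naive CD8, memory CD8 T and B cells to 8, 17, 15, 4, 41 and 29 without the low-count filter. With the replicate block it was 10, 9, 13, 3, 11 and 2. Replicate numbers are labels only: correlations of same-numbered mice ran from -0.0998 to 0.153, so no pairing was assumed. Leaving out 1 replicate gave 1 to 10, 0 to 4, 0 to 8, 1 to 6, 0 to 16 and 0 to 8. It was 0 in regulatory T, 1 in memory CD8 T and 2 in B cells with DESeq2, 0 in memory CD8 T with RLE factors or with cells of 2000 UMIs or more, and 0 in regulatory T with a mitochondrial limit of 5%. It was 10 in regulatory T with doublets kept, and 2 in memory CD4 T with the stricter memory gate. Gates read on thinned cells gave 4 in memory CD4, 6 in regulatory, 1 in naive CD8 and 0 in memory CD8 T cells, and 1 B cell UMI allowed gave 5 in naive CD4, 0 in regulatory and 0 in memory CD8 T cells.

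Members passing as higher went to 5 in memory over naive CD4 T and to 3 in the CD4 minus CD8 difference with library totals. In regulatory over naive CD4 T they went to 2 without the filter and 3 with thinned gates. In B over naive CD4 T they went to 1 without the filter, with no replicate block (mouse), a mitochondrial limit of 5%, doublets kept or 1 B cell UMI allowed, to 0 with thinned gates, and to 0 to 2 without 1 replicate. In regulatory over memory CD4 T they went to 2 with no replicate block and 1 with thinned gates, and lower calls to 0 at 5%. In the CD4 minus CD8 difference they went to 0 without the filter or with thinned gates and to 1 to 2 without 1 replicate, and lower calls to 1 with the stricter memory gate. Lower calls in memory over naive CD8 T went to 2 with doublets kept or 1 B cell UMI allowed and to 0 with thinned gates.

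The sign changed mostly for members near 0. In memory over naive CD4 T, Gimap5 had 0.0033 (DESeq2), 0.0031 (RLE), 0.20 (totals), 0.0098 (5%), 0.093 (stricter gate) and 0.068 (thinned gates), and -0.050 to 0.032 without 1 replicate. Gimap1 had -0.060 (no filter), -0.045 (5%), -0.017 (doublets), -0.00089 (1 B cell UMI) and -0.028 to 0.033 without 1 replicate, Gimap8 -0.011 (no filter) and Gimap4 0.061 (totals). In memory over naive CD8 T, Gimap5 had 0.0022 (DESeq2), 0.0028 (RLE), 0.044 (totals), 0.0036 (no replicate block), 0.19 (stricter gate), 0.41 (thinned gates), 0.011 (1 B cell UMI) and -0.053 to 0.053 without 1 replicate. Gimap8 had 0.011 (totals), 0.10 (5%), 0.15 (thinned gates) and -0.11 to 0.020 without 1 replicate, Gimap1 0.097 and Gimap6 -0.14 (stricter gate), and Gimap9 0.073 (thinned gates). In regulatory over memory CD4 T thinned gates gave -0.019 for Gimap1, -0.036 for Gimap3 and -0.092 for Gimap8. In the CD4 minus CD8 difference Gimap5 had 0.00032 (RLE), 0.16 (totals), 0.026 (5%), 0.012 (doublets) and -0.052 to 0.019 without 1 replicate, Gimap8 -0.026 (5%) and -0.0068 to 0.16 without 1 replicate, Gimap1 -0.035 (stricter gate) and Gimap7 -0.30 (stricter gate) and -0.49 (thinned gates).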

Other observations

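Plasmacytoid dendritic-like cells (156) had UMIs mostly of 3 members. Gimap6 had 62.7 ± 12.1 CPM (SD, n = 6 mice, 89 UMIs in all), Gimap9 a mean of 41.1 CPM (17.1 to 62.8 over mice, 59 UMIs) and Gimap1 24.6 ± 7.25 CPM (36 UMIs). Gimap8 had 4 UMIs in all, Gimap3, Gimap4 and Gimap5 had 3 each and Gimap7 had 0, which allows up to 3 UMIs. The floor covers counting error only. In the same cells the T cell gene Cd28 had 39.7 ± 24.8 CPM, while Trbc2 had 10.0 ± 8.21, Lat 7.81 ± 3.28 and Tcf7 9.98 ± 18.4 CPM. In naive CD4 T cells Cd28 had 345, Trbc2 2063, Lat 505 and Tcf7 444 CPM, and Gimap6, Gimap9 and Gimap1 had 382, 264 and 271 CPM. Gimap1 in myeloid-like cells had 26.3 CPM. The part of free RNA was not tested in these few cells, so the levels are not read as expression.

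NK-like cells were few (56), and Cd74 ran from 0 to 5699 CPM over their mice. Gimap4 had 288 ± 103 CPM, Gimap6 255 ± 88.2, Gimap3 183 ± 72.8, Gimap5 174 ± 98.2 and Gimap7 146 ± 51.4 CPM, from 70 to 141 UMIs each. Cycling T cells (523) summed to 966 ± 55.1 CPM over the family. Their Gimap7 level was 79.6 ± 15.7 CPM and their Gimap6 level 167 ± 9.23 CPM. These classes were described and not tested.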
